A study of Mus musculus with 6 samples.

Results

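The kinetochore is the protein assembly that joins a chromosome to the spindle, and the 42 genes described here encode its centromeric base, its microtubule-binding outer layer and the spindle checkpoint that watches over it. They were taken by gene name from the table of expression values, which matched 42 of 42 names among 55471 gene IDs, with 1 row for each. The values came from total RNA sequencing of haematopoietic stem cells, the rare cells that renew all blood lineages, from mice of the ETV6-RUNX1 genotype, which carry a fusion gene known from childhood B-cell leukaemia. The cells had been sorted as lineage-negative, Kit-positive, Sca1-positive, CD48-negative and CD150-positive, and libraries were made with a SMARTer stranded kit for very small amounts of total RNA. Both groups carried this genotype: 3 libraries came from uninduced mice without doxycycline and 3 from mice given doxycycline in food for 2 weeks to induce the fusion. No doxycycline-treated mice without the fusion were analysed here, so induction and doxycycline cannot be told apart. The age and sex of the mice and the promoter that drives the fusion are not given in the sources used here. No label says whether the replicates of a group came from separate mice, so p-values measure only the spread between these libraries.

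A centromere is marked by nucleosomes that hold the histone variant Cenpa. The constitutive network binds them throughout the cell cycle, and in mitosis it recruits the Ndc80, Mis12 and Knl1 complexes, which grip microtubules. Checkpoint kinases and Mad and Bub proteins on unattached kinetochores hold back anaphase, and the chromosomal passenger complex, with the kinase Aurkb, corrects wrong attachments. Many of these genes are transcribed mainly in G2 and mitosis, and stem cells of the adult marrow are known to be mostly quiescent.

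All values were TPM (the share of a library that falls to 1 gene, corrected for transcript length and scaled to the same total in each library), so levels can be compared between genes, but the sequencing depth is unknown. Nuclear protein-coding genes held 26.6 to 32.9% of the TPM in the uninduced and 20.5 to 23.2% in the induced libraries (exact two-sided permutation p = 0.1, the smallest that 3 against 3 libraries can give). Over the 13470 tested genes the log2 change had a median of -0.35 on the deposited scale and of -0.0029 after median-of-ratios scaling, which sets the median ratio of each library to a common reference to 1. Changes are therefore given beside -0.35. The tests below on the deposited scale were against a change of 0, so genes said to fall were not tested against that shift. Of 8 stem cell markers 3 passed as higher (Procr, Hlf and Ly6a) and 2 as lower, among them Kit. Of 8 lymphoid markers 7 were listed at 0 TPM in the 6 libraries (among them Cd3e, Cd79a and Ebf1), as were Prss34 of the mast cell and basophil list and Col1a1 and Lepr of the stromal list. The 10 erythroid markers summed to 57.4 to 73.5 TPM in the uninduced and 393 to 453 TPM in the induced libraries, and 5 of the 8 tested passed as higher. The 9 myeloid markers summed to 237 to 284 TPM and 233 to 284 TPM, the 6 megakaryocyte markers to 102 to 135 TPM and 119 to 129 TPM, and the 7 endothelial and stromal markers to 24.1 to 35.0 TPM and 38.6 to 47.9 TPM. The 4 markers of multipotent progenitors summed to 101 to 136 TPM and 141 to 157 TPM, and the 5 of mast cells and basophils to 105 to 166 TPM and 98.3 to 119 TPM. Of the tested markers Pf4 and Ppbp of the megakaryocyte list (2 of 5) passed as higher and Gp9 as lower, Prtn3 of the myeloid list (1 of 6) passed as higher, and no tested marker of the progenitor, mast cell and stromal lists passed. After median-of-ratios scaling 4 stem cell, 5 erythroid, 2 megakaryocyte, 2 myeloid, 1 multipotent progenitor and 1 endothelial or stromal marker passed as higher, and 1 stem cell marker as lower. The part of these cell types in the results below was not tested.

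Of the 42 kinetochore genes, from the centromere to the passenger complex, 24 fell in the induced cells and 0 rose. In limma's test on log2(TPM + 1), with Benjamini-Hochberg adjustment over all tested genes and a threshold of 0.05, the other 18 did not pass. Of all tested genes 10.2% passed as lower (1375 lower and 174 higher). No gene of the 42 passed as higher, and none had a positive change: 42 of 42 were below 0, as were 72.5% of all tested genes, and 41 of 42 were below the median change. The median log2 change of the 42 genes was -1.47. An unadjusted p under 0.05 was found for 35 of the 42, each of them lower, and 24.2% of all tested genes were lower at that threshold. All 3 induced libraries lay below all 3 uninduced libraries for 33 of the 42, against 28.2% of all tested genes. After median-of-ratios scaling 13 of the 42 passed as lower and 0 as higher, where 3.21% of all tested genes passed as lower (432 lower and 382 higher), and their median change was -1.12. In bulk samples, fewer cells in division and less of these transcripts per cell cannot be told apart.

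The decrease was uneven. Of the 42 genes 10 lay among the 1% of tested genes with the lowest change and 22 among the lowest 5%, while the change of Cenpl lay at percentile 50.6 of all tested genes, that of Cenpt at 47.3 and that of Cenpb at 39.0. The 10 were Spc24, Nuf2, Birc5, Cenph, Bub1b, Cenpn, Cenpf, Aurkb, Spc25 and Cdca8. This ranking rests on log2(TPM + 1), which understates changes of low genes. The change of Cenpm was -4.19 with 0.1 TPM added before the logarithm and -0.87 with 5, and that of Cdca8 was -2.73 and -1.71. All 42 reached the expression minimum, a mean of 1 TPM over the 6 libraries, but 19 had an induced mean under 1 TPM and reached it through the uninduced libraries. These include 12 of the 24 genes that fell. Values of 0 TPM were listed for 9 genes, 13 times in the induced and 0 times in the uninduced libraries, out of 126 values in each group. The number of genes past the threshold was 14 to 18 when 1 library was left out, and it moved by over 1.5 times without uninduced replicate 1 (15), uninduced replicate 2 (14), induced replicate 1 (15) or induced replicate 2 (14). The genes Cenph, Cenpn, Ndc80, Nuf2, Spc24, Spc25, Cenpe, Cenpf, Bub1b, Aurkb, Birc5 and Cdca8, 12 in all, passed under each of the 15 alternatives in which they could be tested.

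**Figure D1:**
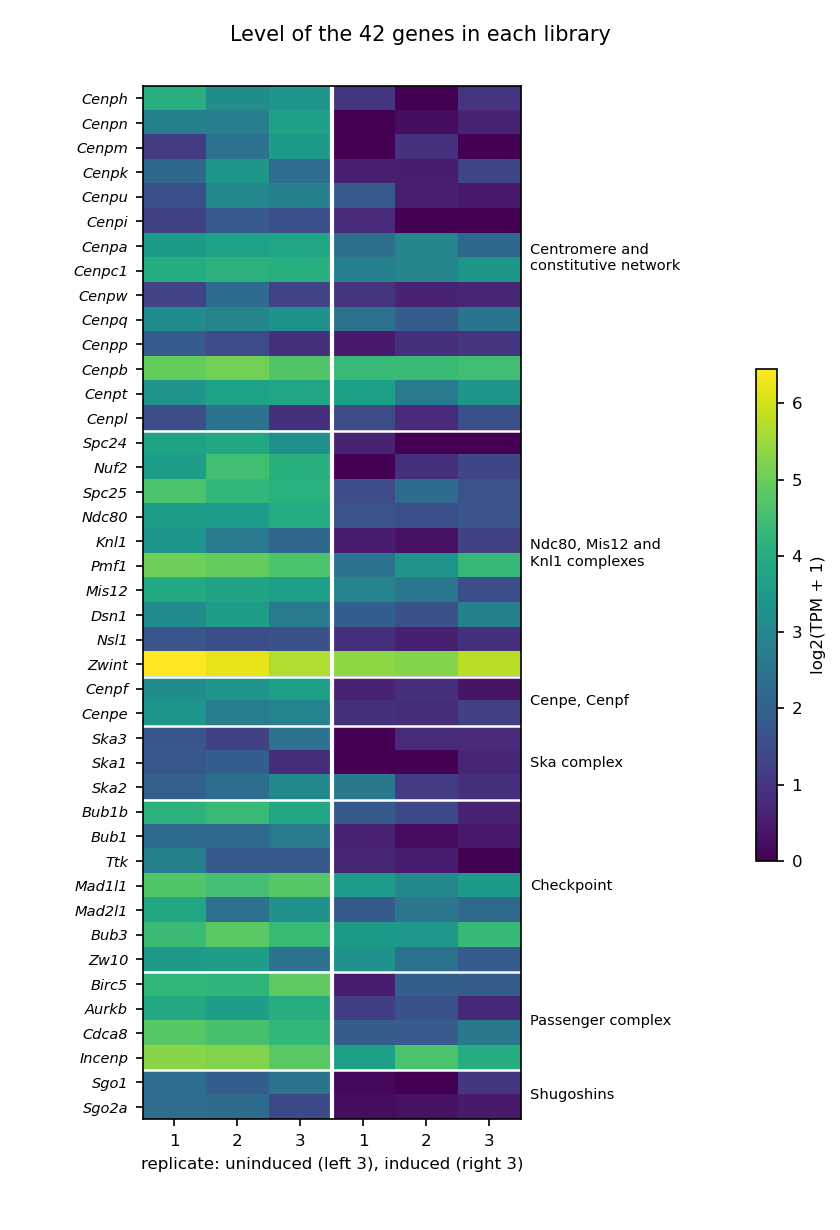
Level of the 42 genes as log2(TPM + 1), 1 row per gene and 1 column per library, with the 3 uninduced libraries on the left, the 3 induced libraries on the right and the genes grouped by role. Rows such as Spc24, Nuf2 and Cenpf are dark in the induced columns, while Zwint, Cenpb and Bub3 stay bright in all 6 libraries.

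Promoter sequences of the genes were examined for letters known from mitotic genes. Mitotic genes are known to be controlled through CHR elements (the letters TTTGAA or the variant TTCGAA), bound by the MuvB complex, and through CCAAT boxes, bound by NF-Y. RefSeq promoter windows on GRCm38.p6, from 250 bases before to 50 after the transcription start, were found by symbol for 37 of the 42 genes (not for Ska1, Nsl1, Spc24, Incenp and Aurkb). Both strands were searched, and TTCGAA reads the same on both. A CHR element was found in 18 of the 37 (48.6%), against 16.4% of 8804 tested genes with a window and 21.7% of all 27025 genes with one. CCAAT was found in 25 of the 37 (67.6%), against 43.4% and 41.1%. Both were found in 14 of the 37 (37.8%), against 7.04% and 8.61%. Among genes that fell, 12 of 21 had a CHR element, and among those that did not pass, 6 of 16. A match is a description of the letters in the window and shows no binding. The windows of the 4 genes with the largest decrease on the deposited log2(TPM + 1) scale among those with a match are shown, with the matches in capitals (ATTGG and TTCAAA are CCAAT and TTTGAA on the opposite strand).
Cenph (chr13:100775850-100776149, minus strand): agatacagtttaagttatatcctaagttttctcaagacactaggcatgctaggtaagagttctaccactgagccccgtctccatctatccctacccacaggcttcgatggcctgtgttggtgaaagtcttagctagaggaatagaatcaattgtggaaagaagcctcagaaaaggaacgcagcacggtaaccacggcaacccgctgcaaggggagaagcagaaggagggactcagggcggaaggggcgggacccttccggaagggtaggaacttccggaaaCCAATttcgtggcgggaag
Bub1b (chr2:118597961-118598260, plus strand): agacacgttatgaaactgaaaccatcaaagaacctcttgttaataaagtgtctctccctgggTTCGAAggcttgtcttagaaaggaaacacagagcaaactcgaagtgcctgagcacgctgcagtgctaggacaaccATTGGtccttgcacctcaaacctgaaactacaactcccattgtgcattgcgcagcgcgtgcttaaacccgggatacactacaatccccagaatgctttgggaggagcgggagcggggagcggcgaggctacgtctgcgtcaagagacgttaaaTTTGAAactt
Cenpn (chr8:116921490-116921789, plus strand): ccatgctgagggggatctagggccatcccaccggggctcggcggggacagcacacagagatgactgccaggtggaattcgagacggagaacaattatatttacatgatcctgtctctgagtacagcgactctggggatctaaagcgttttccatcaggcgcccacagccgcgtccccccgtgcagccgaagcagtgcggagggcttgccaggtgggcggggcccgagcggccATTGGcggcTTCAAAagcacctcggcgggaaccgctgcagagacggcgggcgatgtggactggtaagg
Cenpf (chr1:189688037-189688336, minus strand): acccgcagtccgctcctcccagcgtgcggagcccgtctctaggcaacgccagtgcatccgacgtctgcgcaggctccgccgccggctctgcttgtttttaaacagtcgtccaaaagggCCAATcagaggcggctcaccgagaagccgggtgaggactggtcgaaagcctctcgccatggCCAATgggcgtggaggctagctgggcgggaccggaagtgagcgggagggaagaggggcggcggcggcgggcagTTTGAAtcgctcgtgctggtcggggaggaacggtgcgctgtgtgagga
The Bub1b, Cenpn and Cenpf windows hold both kinds of match, and the Cenpf window holds CCAAT at 2 places. The Cenph window holds only a CCAAT, 32 bases after the start. Nuf2, Birc5 and Mad1l1, which also fell, had none of the letters searched in their windows, which says nothing of the factors themselves.

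Centromeric chromatin and the constitutive network held 14 of the genes, of which 5 fell, 9 did not pass and 0 rose. Positions are whole genes in GENCODE M21 on GRCm38. Cenpa (ENSMUSG00000029177, chr5:30666777-30674830, plus strand), the histone variant that marks the centromere, was at 10.3, 12.2 and 13 TPM in uninduced cells, against 4.17, 6.64 and 3.48 TPM in induced cells (log2 change -1.19, SE 0.31, limma adjusted p 0.0375). Cenpc1 (ENSMUSG00000029253, chr5:86012024-86065583, minus strand), which bridges Cenpa nucleosomes to the outer kinetochore, was at 15.1, 16.6 and 15.5 TPM uninduced and 6.12, 6.6 and 9.72 TPM induced (log2 change -1.0, SE 0.27, limma adjusted p 0.0414). In both genes the groups did not overlap, but the change was less than that of most genes that fell. A processed pseudogene, Gm13477, matches Cenpc1 over 2691 bases at 93.2% identity and was itself at a mean of 0.0584 TPM, and a Gtdc1 transcript matches it over 673 bases at 93.5% (mean 4.01 TPM for Gtdc1).

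Cenph (ENSMUSG00000045273, chr13:100759674-100775899, minus strand), a subunit of the network's module of Cenph, Cenpi, Cenpk and Cenpm, was at 15.4, 8.14 and 9.41 TPM without induction and 0.991, 0 and 0.982 TPM with it (log2 change -2.88, SE 0.43, limma adjusted p 0.00432). Cenpk, of the same module, was at 3.52, 9.59 and 3.95 TPM in uninduced cells, against 0.456, 0.408 and 1.57 TPM in induced cells (log2 change -1.83, SE 0.47, limma adjusted p 0.0362). Cenpi, also of this module, was at 1.36, 2.64 and 1.96 TPM uninduced and 0.721, 0 and 0 TPM induced and did not pass (log2 change -1.30, SE 0.48, limma adjusted p 0.109). In each of these 3 genes of the module, and in Cenpm below, the highest induced value lay below the lowest uninduced value. This held for 28.2% of all tested genes. Cenpn (ENSMUSG00000031756, chr8:116921730-116941507, plus strand), which reads Cenpa nucleosomes together with its partner Cenpl, was at 6.06, 5.81 and 11.9 TPM without induction and 0, 0.168 and 0.548 TPM with it (log2 change -2.81, SE 0.43, limma adjusted p 0.00464). Cenpl, in contrast, was at 1.9, 4.47 and 0.834 TPM in uninduced cells, against 1.85, 0.705 and 1.97 TPM in induced cells, with overlapping groups (log2 change -0.34, SE 0.51, limma adjusted p 0.707). The Cenpl change was 0.08 without uninduced replicate 2.

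Cenpm, the remaining subunit of the Cenph module, was at 1.21, 4.3 and 10.4 TPM uninduced and 0, 0.894 and 0 TPM induced and did not pass, with uninduced replicate 3 far above uninduced replicate 1 (log2 change -2.05, SE 0.62, limma adjusted p 0.0597). It passed without uninduced replicate 1 (adjusted p 0.0353). Of the subunits that bind beside it, Cenpq was at 7.75, 6.6 and 8.76 TPM without induction and 4.29, 2.7 and 4.62 TPM with it (log2 change -0.85, SE 0.32, limma adjusted p 0.118). Cenpu was at 2.0, 6.96 and 6.05 TPM in uninduced cells, against 2.6, 0.465 and 0.38 TPM in induced cells, with overlap through induced replicate 1 (log2 change -1.51, SE 0.54, limma adjusted p 0.101). Cenpu shares 26.7% of its exon bases with Primpol on the opposite strand, and whether the counting used strand is not given in the sources used here. Cenpp was at 2.66, 1.84 and 0.83 TPM uninduced and 0.371, 0.856 and 0.996 TPM induced and overlapped (log2 change -0.64, SE 0.47, limma adjusted p 0.412), and shares 12.3% of its exon bases with Ippk on the opposite strand.

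Cenpt, which contacts DNA and reaches out to the Ndc80 complex, was at 9.35, 12.5 and 12.8 TPM without induction and 11.7, 5.44 and 9.66 TPM with it, with overlapping groups (log2 change -0.38, SE 0.32, limma adjusted p 0.475). Its histone-fold partner Cenpw was at 1.45, 3.77 and 1.47 TPM in uninduced cells, against 0.98, 0.533 and 0.603 TPM in induced cells, without overlap (log2 change -0.86, SE 0.46, limma adjusted p 0.259). Cenpb (ENSMUSG00000068267, chr2:131175182-131180067, minus strand), which binds a short motif in centromeric satellite DNA, had the highest level of the 14 genes, at 29.5, 32.6 and 25 TPM uninduced and 19.2, 20.0 and 21.4 TPM induced (log2 change -0.49, SE 0.21, limma adjusted p 0.155). The Cenpb groups did not overlap, but after median-of-ratios scaling its change was -0.11 and that of Cenpt was -0.02. After that scaling Cenph (limma adjusted p 0.0121) and Cenpn (0.0132) passed, while Cenpa (0.172), Cenpc1 (0.17) and Cenpk (0.0767) did not. The Cenpa and Cenpk calls were lost whichever of the 6 libraries was left out (adjusted p 0.0538 to 0.112 and 0.0517 to 0.123), and the Cenpc1 call without each library other than induced replicate 3 (0.082 to 0.13).

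**Figure D2:**
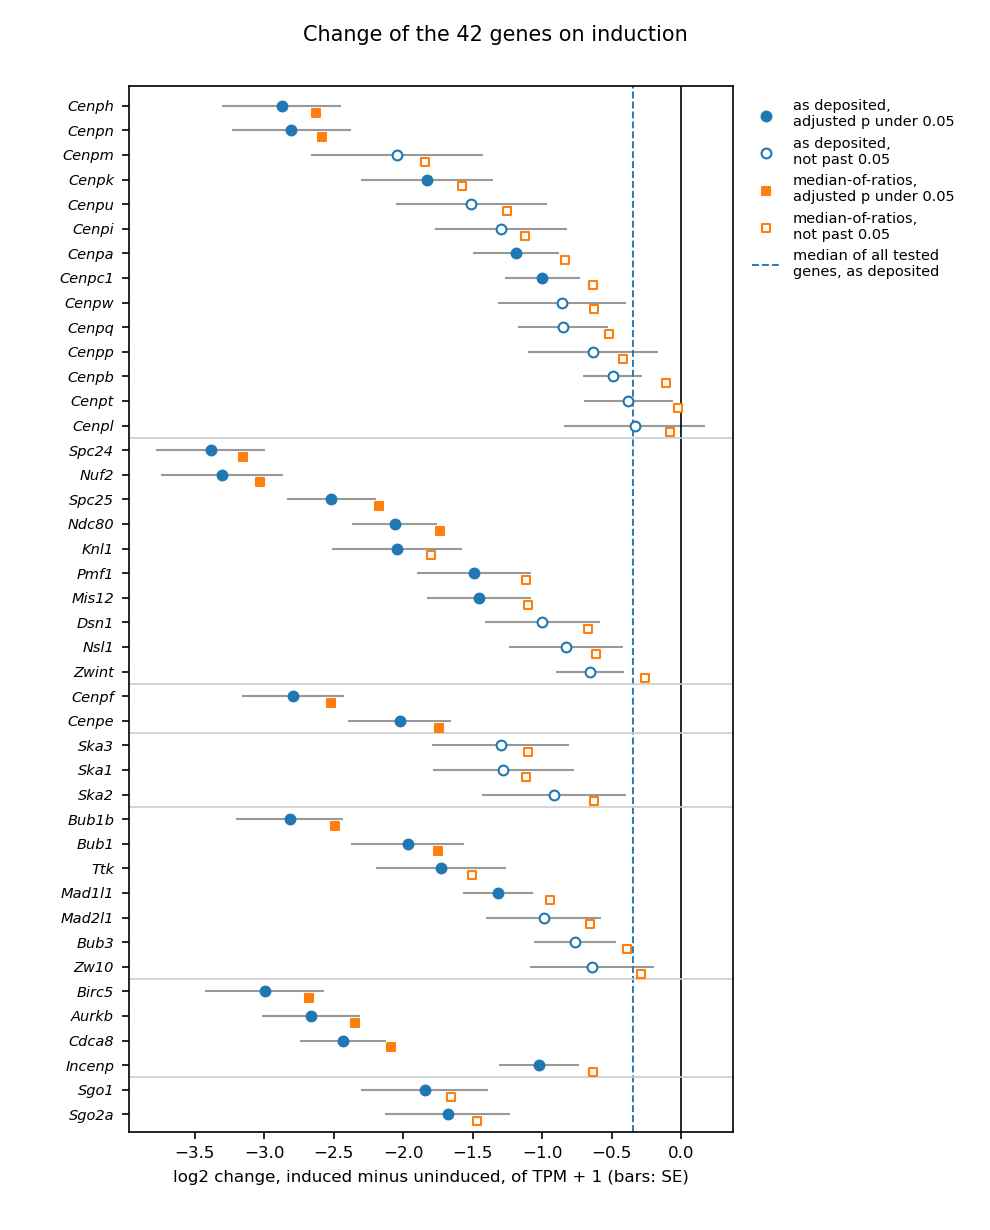
Log2 change of TPM + 1 for each gene, induced minus uninduced, with circles as deposited (bars give SE) and squares after median-of-ratios scaling; filled symbols have an adjusted p under 0.05. The dashed line is the median of all tested genes at -0.35, and 24 circles and 13 squares are filled, all to the left of it.

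The outer kinetochore group, the Ndc80, Mis12 and Knl1 complexes with Zwint, held 10 genes, of which 7 fell, 3 did not pass and 0 rose. The rod-shaped Ndc80 complex, which binds the microtubule, fell in all 4 of its subunits. Spc24 (ENSMUSG00000074476, chr9:21755442-21760303, minus strand), at the inner end of the rod, was at 12.3, 13.3 and 8.42 TPM without induction and 0.566, 0 and 0 TPM with it (log2 change -3.39, SE 0.39, limma adjusted p 0.00159). Its dimer partner Spc25 (ENSMUSG00000005233, chr2:69193895-69206194, minus strand) was at 23.6, 18.2 and 16.3 TPM in uninduced cells, against 1.86, 3.8 and 2.16 TPM in induced cells (log2 change -2.52, SE 0.32, limma adjusted p 0.00236). Spc24 and Spc25 proteins pair with each other, and Spc25 transcripts were listed above Spc24 transcripts in each of the 6 libraries. Nuf2 (ENSMUSG00000026683, chr1:169497934-169531464, minus strand), at the outer end, was at 11, 21.8 and 16 TPM uninduced and 0, 0.874 and 1.56 TPM induced (log2 change -3.31, SE 0.44, limma adjusted p 0.00265). Ndc80 (ENSMUSG00000024056, chr17:71496100-71526857, minus strand), its partner, was at 11.3, 10.5 and 14.6 TPM without induction and 2.18, 1.98 and 2.22 TPM with it (log2 change -2.06, SE 0.31, limma adjusted p 0.00432). The 3 induced values of Ndc80 were close together, and no groups overlapped in the 4 genes. A transcribed pseudogene, 2700099C18Rik, matches Ndc80 over 591 bases at 92.9% identity and was at a mean of 4.29 TPM, so reads could be assigned to either. These 4 genes passed after median-of-ratios scaling (limma adjusted p 0.00291 to 0.0142) and with each of the 6 libraries left out in turn.

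The Mis12 complex links the constitutive network to the Ndc80 complex. Its subunit Mis12 was at 14.1, 12.6 and 11.6 TPM in uninduced cells, against 6.36, 4.77 and 1.94 TPM in induced cells (log2 change -1.46, SE 0.37, limma adjusted p 0.0345), and Pmf1 at 31.4, 29.4 and 23.4 TPM uninduced and 4.44, 9.17 and 18.6 TPM induced (log2 change -1.49, SE 0.41, limma adjusted p 0.0443). Both fell, without overlap, and for Pmf1 induced replicate 3 lay well above the other two induced values. Dsn1 was at 7.7, 11 and 5.17 TPM without induction and 2.78, 2.05 and 5.95 TPM with it and did not pass, with overlap through induced replicate 3 (log2 change -1.0, SE 0.41, limma adjusted p 0.147). Nsl1 was at 2.21, 1.91 and 2.02 TPM in uninduced cells, against 0.859, 0.489 and 0.815 TPM in induced cells and did not pass, although its groups did not overlap (log2 change -0.83, SE 0.41, limma adjusted p 0.222). The summed level of the 4 Ndc80 complex genes was 58.2, 63.8 and 55.4 TPM without induction and 4.6, 6.66 and 5.95 TPM with it. That of the 4 Mis12 complex genes was 55.5, 54.9 and 42.2 TPM and 14.4, 16.5 and 27.3 TPM. The ratio of the first sum to the second, which no scaling of a library changes, was 1.05, 1.16 and 1.31 without induction and 0.319, 0.404 and 0.218 with it. The groups did not overlap in this ratio, and it is given as a description because the complexes were compared after their values were seen.

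Knl1 (ENSMUSG00000027326, chr2:119047119-119105501, plus strand), the scaffold that docks the Bub proteins, was at 9.44, 5.35 and 3.4 TPM uninduced and 0.415, 0.223 and 1.4 TPM induced (log2 change -2.04, SE 0.47, limma adjusted p 0.0229). Zwint (ENSMUSG00000019923, chr10:72654845-72674964, plus strand), its binding partner, had the highest level of the 42 genes, at 86.4, 74 and 50.2 TPM without induction and 39.8, 37 and 54.3 TPM with it, and did not pass (log2 change -0.66, SE 0.24, limma adjusted p 0.11). The Zwint groups overlapped, since induced replicate 3 lay above uninduced replicate 3. A processed pseudogene, Gm8099, matches Zwint over 719 bases at 95.3% identity and was at a mean of 0.966 TPM. Zwint made up 15.9, 13.8 and 10.5% of the summed level of the 42 genes in the uninduced and 23.2, 21.9 and 25.9% in the induced libraries. After median-of-ratios scaling Knl1 (limma adjusted p 0.0503), Mis12 (0.135) and Pmf1 (0.143) did not pass. The Knl1 call was lost without uninduced replicate 1 or 2 or induced replicate 1 or 2 (0.0715 to 0.0911), the Mis12 call without each library other than induced replicate 1 (0.0737 to 0.115), and the Pmf1 call without each library other than induced replicate 3 (0.0821 to 0.14).

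Cenpe and Cenpf, large proteins of the outermost layer in mitosis, both fell. Cenpf (ENSMUSG00000026605, chr1:189640606-189688086, minus strand) was at 7.88, 9.55 and 11.7 TPM in uninduced cells, against 0.549, 0.836 and 0.258 TPM in induced cells (log2 change -2.79, SE 0.37, limma adjusted p 0.00263). Cenpe (ENSMUSG00000045328, chr3:135212537-135273611, plus strand), a kinesin that moves chromosomes to the spindle equator, was at 9.53, 5.76 and 6.32 TPM uninduced and 0.816, 0.81 and 1.34 TPM induced (log2 change -2.03, SE 0.37, limma adjusted p 0.00922). In both genes the 3 induced values lay far below the uninduced ones, with no overlap. Their summed level was 17.4, 15.3 and 18 TPM and 1.36, 1.65 and 1.60 TPM, a ratio of means of 11.0. Both passed after median-of-ratios scaling (limma adjusted p 0.00698 and 0.0236).

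The Ska complex, which tracks microtubule ends beside the Ndc80 complex, held 3 genes, with a median change of -1.28, of which 0 passed in limma's test and 2 had an unadjusted p under 0.05 (Ska1 and Ska3). Ska1 was at 2.35, 2.83 and 0.802 TPM without induction and 0, 0 and 0.611 TPM with it (log2 change -1.28, SE 0.51, limma adjusted p 0.133). Ska3 was at 2.3, 1.4 and 4.48 TPM in uninduced cells, against 0, 0.722 and 0.693 TPM in induced cells (log2 change -1.30, SE 0.49, limma adjusted p 0.119). In both genes the induced libraries lay below the uninduced ones, at levels where the log2(TPM + 1) scale understates a change. Ska2 was at 2.91, 4.04 and 7.08 TPM uninduced and 4.96, 1.18 and 0.816 TPM induced, with overlap through induced replicate 1 (log2 change -0.92, SE 0.52, limma adjusted p 0.285).

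Of the 7 checkpoint genes 4 fell, 3 did not pass and 0 rose. Bub1b (ENSMUSG00000040084, chr2:118598211-118641591, plus strand), which encodes BubR1, a part of the inhibitor of the anaphase-promoting complex, was at 16.7, 19.5 and 13 TPM without induction and 2.58, 1.64 and 0.533 TPM with it (log2 change -2.82, SE 0.38, limma adjusted p 0.00325). Bub1 (ENSMUSG00000027379, chr2:127801122-127831865, minus strand), a kinase that recruits other checkpoint proteins, was at 3.76, 3.71 and 5.31 TPM in uninduced cells, against 0.518, 0.145 and 0.355 TPM in induced cells (log2 change -1.97, SE 0.41, limma adjusted p 0.0153). Ttk (ENSMUSG00000038379, chr9:83834689-83872389, plus strand), the kinase Mps1 that starts the checkpoint signal, was at 5.96, 2.51 and 2.48 TPM uninduced and 0.588, 0.431 and 0.0282 TPM induced (log2 change -1.73, SE 0.47, limma adjusted p 0.042). The groups did not overlap in these 3 genes. Mad1l1 (ENSMUSG00000029554, chr5:140008689-140321552, minus strand), which holds Mad2 at the kinetochore, was at 24.8, 22.1 and 26.6 TPM without induction and 10.6, 6.93 and 10.5 TPM with it, also without overlap (log2 change -1.32, SE 0.25, limma adjusted p 0.0114).

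Mad2l1, which encodes Mad2, was at 13.5, 4.43 and 8.64 TPM in uninduced cells, against 2.55, 4.88 and 3.64 TPM in induced cells and did not pass (log2 change -0.99, SE 0.41, limma adjusted p 0.152). Its groups overlapped because uninduced replicate 2 lay below induced replicate 2. Bub3 (ENSMUSG00000066979, chr7:131560222-131571895, plus strand), a partner of Bub1 and BubR1 that is also present outside mitosis, was at 20.2, 26.9 and 19.2 TPM uninduced and 10.4, 9.78 and 18.8 TPM induced, with uninduced replicate 3 only just above induced replicate 3 (log2 change -0.76, SE 0.29, limma adjusted p 0.124). Zw10, which recruits dynein and also serves in membrane traffic, was at 10.1, 11 and 4.48 TPM without induction and 8.73, 4.38 and 2.69 TPM with it, with overlapping groups (log2 change -0.64, SE 0.45, limma adjusted p 0.387). The Bub1b to Bub3 ratio within a library was 0.824, 0.724 and 0.677 without induction and 0.247, 0.167 and 0.0283 with it, a description of a pair chosen after its values were seen. After median-of-ratios scaling Bub1b (limma adjusted p 0.00887) and Bub1 (0.0359) passed, and Mad1l1 (0.0522) and Ttk (0.0882) did not. The Ttk call was lost whichever of the 6 libraries was left out (0.0548 to 0.108) and the Bub1 call without induced replicate 2 (0.0592).

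All 4 genes of the chromosomal passenger complex fell, and their groups did not overlap. Birc5 (ENSMUSG00000017716, chr11:117849251-117855743, plus strand), which encodes survivin and brings the complex to the centromere, was at 18.3, 17.5 and 27.7 TPM in uninduced cells, against 0.403, 2.84 and 2.72 TPM in induced cells (log2 change -3.00, SE 0.43, limma adjusted p 0.0040). Aurkb (ENSMUSG00000020897, chr11:69045647-69051664, plus strand), its kinase, was at 14.3, 11.1 and 15.3 TPM uninduced and 1.28, 2.07 and 0.688 TPM induced (log2 change -2.67, SE 0.35, limma adjusted p 0.00265). Cdca8 (ENSMUSG00000028873, chr4:124918465-124939311, minus strand), which encodes borealin, was at 26.6, 22.9 and 18.4 TPM without induction and 2.74, 2.62 and 4.96 TPM with it (log2 change -2.44, SE 0.31, limma adjusted p 0.00234). These 3 genes passed after median-of-ratios scaling (limma adjusted p 0.0139, 0.00992 and 0.00453). Incenp (ENSMUSG00000024660, chr19:9872296-9899551, minus strand), the scaffold of the complex, had the highest level of the 4, at 38.8, 36.6 and 26.7 TPM in uninduced cells, against 11.5, 23.8 and 15 TPM in induced cells, and the smallest change (log2 change -1.02, SE 0.29, limma adjusted p 0.0482). Incenp did not pass after median-of-ratios scaling (0.24) or without each library other than induced replicate 2 (0.0582 to 0.155). The Cdca8 to Incenp ratio, likewise a pair chosen after its values were seen, was 0.686, 0.626 and 0.687 without induction and 0.239, 0.110 and 0.331 with it.

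Both shugoshins, which protect centromeric cohesin until anaphase, fell. Sgo1 (ENSMUSG00000023940, chr17:53674786-53689333, minus strand) was at 4.0, 2.79 and 4.54 TPM uninduced and 0.102, 0 and 1.05 TPM induced (log2 change -1.85, SE 0.46, limma adjusted p 0.0307). Sgo2a (ENSMUSG00000026039, chr1:57995971-58025899, plus strand) was at 3.9, 3.84 and 1.71 TPM without induction and 0.157, 0.222 and 0.379 TPM with it (log2 change -1.68, SE 0.45, limma adjusted p 0.0406). Levels were low in both groups, and neither gene passed after median-of-ratios scaling (limma adjusted p 0.0705 and 0.0737). Sgo2a shares 35.0% of its exon bases with Kctd18 on the opposite strand, which was at a mean of 6.96 TPM. A processed pseudogene, Gm6982, matches Sgo1 over 1548 bases at 92.9% identity and was listed at 0 TPM. The Sgo1 call was lost without each library other than induced replicate 3 (0.0551 to 0.105) and the Sgo2a call without each other than uninduced replicate 3 (0.0751 to 0.109).

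**Figure D3:**
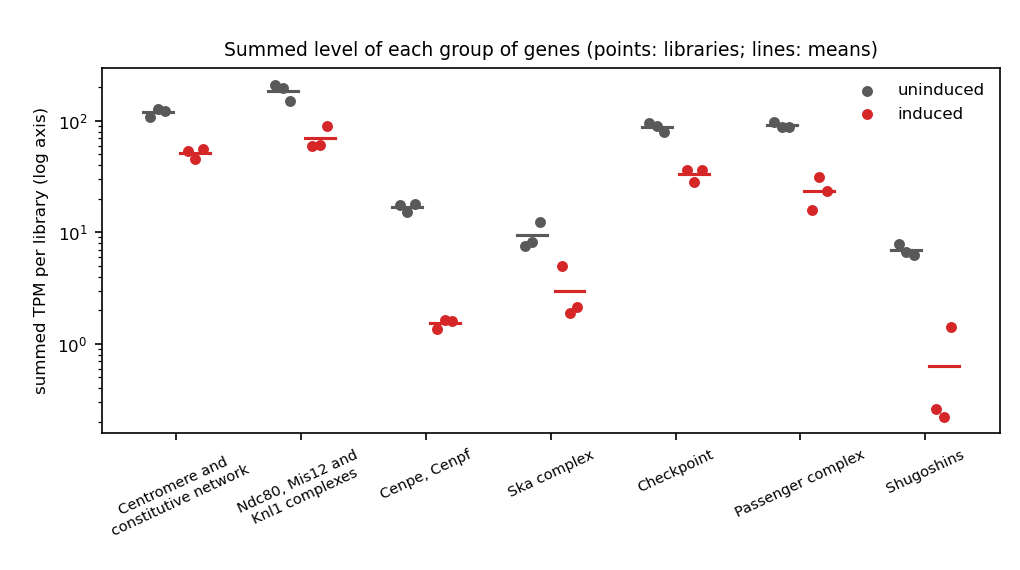
Summed TPM of each role group in each library on a log axis, with uninduced libraries in grey, induced libraries in red and lines at the group means. In each of the 7 groups the 3 induced libraries lie below the 3 uninduced ones, and for the shugoshins induced replicate 3 (1.42 TPM) lies well above the other two induced libraries (0.259 and 0.222 TPM).

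The summed level of the 42 genes was 543, 535 and 477 TPM without induction and 171, 169 and 210.0 TPM with it, a ratio of means of 2.83. As a share of nuclear protein-coding TPM, which sets other classes of RNA aside, it was 0.182, 0.163 and 0.179% and 0.0778, 0.0823 and 0.0904%, a ratio of means of 2.09. The constitutive network had the smallest ratio of summed means (2.31), then the checkpoint (2.63), the outer kinetochore group (2.68) and Ska (3.14). The passenger complex had 3.88, the shugoshins 10.9 and Cenpe with Cenpf 11.0. Within the outer kinetochore group the Ndc80 complex had 10.3. Zwint, Incenp and Cenpb, the 3 genes with the highest means over the 6 libraries, held 28.5, 26.8 and 21.3% of the summed level in the uninduced and 41.1, 47.8 and 43.2% in the induced libraries. Zwint was the highest gene in both groups, and Cenpb stood at place 3 without and at place 2 with induction. Spc24 moved from place 18 to 42, and Birc5 from 8 to 19. The members' median level was 8.68 TPM in the uninduced and 1.43 TPM in the induced libraries, where that of all tested genes was 10.1 and 7.70 TPM.

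**Figure D4:**
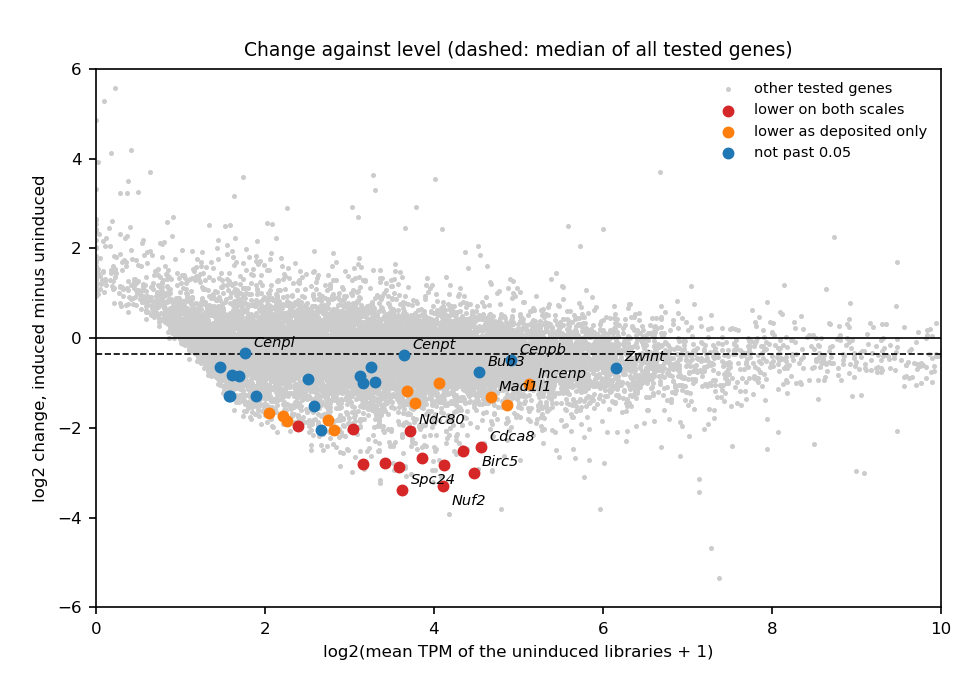
Log2 change against the uninduced mean level for all tested genes in grey (61 lie outside the axes) and the 42 genes in colour, with the median of all tested genes dashed. Apart from Cenpl (-0.34), the 42 genes lie below the dashed line, and Zwint (-0.66) and Cenpb (-0.49), at the high end of levels, are among the smaller changes.

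The genes were spread over the genome. The 42 genes lie on 18 chromosomes of GRCm38, with 6 on chromosome 2. Their median GC content was 42.4%, against 46.3% for all tested genes, and it was 42.1% in the 24 genes that fell and 42.5% in the other 18. The median uninduced level was 12.0 TPM in the genes that fell and 5.16 TPM in the others.

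Genes of the same pathway outside the 42 were followed through lists written by hand, and 26 of 61 tested genes fell on the deposited scale, 10 after median-of-ratios scaling, and 0 rose on either scale, where 10.2% and 3.21% of all tested genes were lower. Of the other centromere genes, which load Cenpa or complete the constitutive network, 7 of 9 tested fell, and 2 passed after median-of-ratios scaling, with a list median of -1.18 on the deposited scale. Cenps was at 10.8, 18.8 and 7.35 TPM in uninduced cells, against 1.73, 5.54 and 0 TPM in induced cells (log2 change -2.26, SE 0.63, limma adjusted p 0.0453). Itgb3bp was under the expression minimum, at 0, 0 and 1.06 TPM uninduced and 0.637, 1.27 and 0.176 TPM induced. Of the other corona, checkpoint and attachment genes 8 of 18 fell, and 4 passed after median-of-ratios scaling, with a list median of -1.41 on the deposited scale. They were led by the spindle proteins Knstrn, at 8.63, 26.7 and 9.45 TPM without induction and 1.61, 1.85 and 0.244 TPM with it (log2 change -2.74, SE 0.50, limma adjusted p 0.00897), and Spag5, at 6.73, 8.2 and 7.11 TPM in uninduced cells, against 0.552, 0.465 and 0 TPM in induced cells (log2 change -2.66, SE 0.39, limma adjusted p 0.00408).

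The anaphase-promoting complex with its activators, securin and separase had 6 genes lower of 20, and 2 after median-of-ratios scaling, with a list median of -0.63 on the deposited scale. Those that fell included separase, Espl1, at 12.3, 4.54 and 8.04 TPM uninduced and 1.45, 0.984 and 0.262 TPM induced (log2 change -2.26, SE 0.45, limma adjusted p 0.0132), and the ubiquitin-conjugating enzyme Ube2c, at 19.7, 16.1 and 15.9 TPM without induction and 3.4, 3.69 and 6.35 TPM with it (log2 change -1.77, SE 0.30, limma adjusted p 0.00684). Of the regulators of mitotic transcription, 5 of 14 fell, and 2 after median-of-ratios scaling, with a list median of -0.68 on the deposited scale. Mybl2, which encodes B-Myb, was at 11.8, 13.2 and 6.57 TPM in uninduced cells, against 0, 0.116 and 1.77 TPM in induced cells (log2 change -2.93, SE 0.48, limma adjusted p 0.00606), and Tfdp1, the partner of E2F factors, at 64.3, 91.3 and 57.4 TPM uninduced and 17.8, 12.1 and 17.5 TPM induced (log2 change -2.09, SE 0.25, limma adjusted p 0.0017). The proliferation markers Mki67, at 48, 53.2 and 48.6 TPM without induction and 6.11, 7.23 and 7.79 TPM with it (log2 change -2.67), and Top2a, at 69.2, 65 and 57 TPM in uninduced cells, against 10.1, 5.42 and 10.5 TPM in induced cells (-2.78), also fell, beside -2.67 for Aurkb and -2.79 for Cenpf. Pcna, a replication clamp, was at 128, 113 and 91.7 TPM uninduced and 32.9, 37.1 and 52.4 TPM induced (-1.43), and the limma adjusted p of the 3 markers were 0.000255, 0.000572 and 0.00464.

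**Figure D5:**
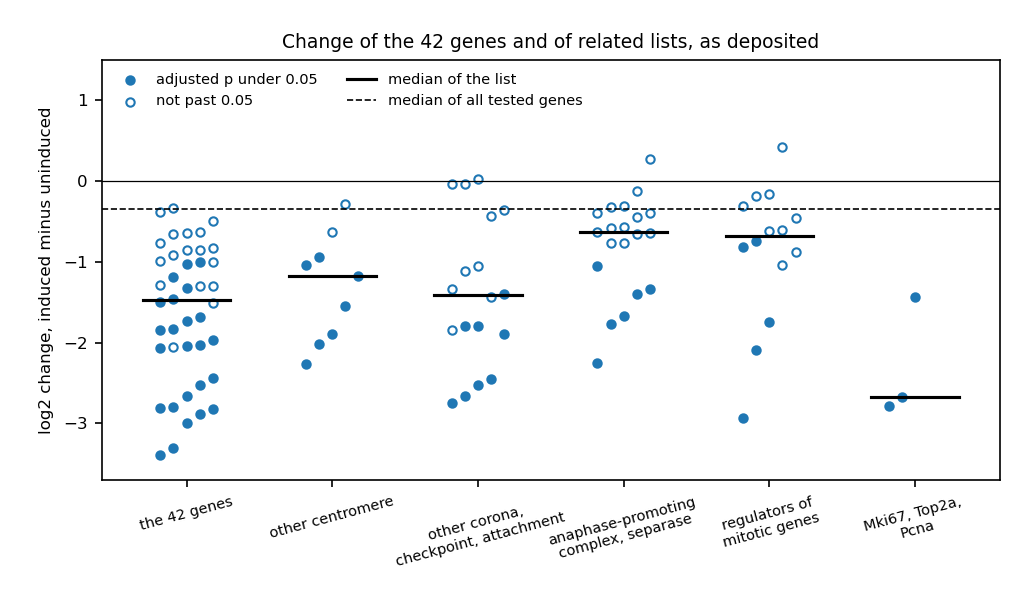
Log2 change of the 42 genes, of 4 lists of related genes and of 3 proliferation markers, 1 point per tested gene, filled where the adjusted p is under 0.05, with list medians as bars and the median of all tested genes dashed. The medians are -1.47 for the 42 genes, -1.18 for the other centromere genes, -1.41 for the other corona, checkpoint and attachment genes, -0.63 for the anaphase-promoting complex, -0.68 for the transcription regulators and -2.67 for the proliferation markers, and no filled point lies above 0.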

How the data were processed

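The authors deposited 1 table of gene values in TPM per library. HISAT2, StringTie, bcl2fastq and the build GRCm38 stand in the submitters' processing notes, without roles. Strand use, filters and versions are not given in the sources used here. Per the file headers, the table also holds the GC content of each gene in percent. Its 60496 rows, 5025 of which repeat a gene ID, were summed to 55471 IDs (column totals 999976 to 999993 TPM). TPM keeps no depth, so no counting interval or detection limit is given.

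Across all genes, limma 3.58.1 (R 4.3.3; empirical Bayes, variance trend, two-sided) was run on log2(TPM + 1) for the 13470 genes whose mean over the 6 libraries reached 1 TPM, with Benjamini-Hochberg adjustment and a threshold of 0.05. The scale understates changes of low genes. The step was tested on simulated data. The members, role groups, lists and motifs were chosen with earlier results of these data known. By rule, library values and tests are given for, in each role group, the gene with the largest decrease past the threshold and the gene with the highest mean, for genes that did not pass, and for genes whose call changed with median-of-ratios scaling. In practice each of the 42 is given. In related lists the 2 largest changes past the threshold and genes called higher are named, except that some genes are not reported here. Itgb3bp was added because it was under the minimum. Alternatives were pseudocounts of 0.1 and 5, a minimum of 5 TPM or none, 3 other scalings (median-of-ratios, quantile, and to the total of nuclear protein-coding genes), a fit without variance trend, a block for the replicate number, and each library left out in turn. Near-identical transcripts (at least 200 aligned bases and 90% identity) were sought with minimap2 2.31 in GENCODE M21, which also gave positions and exon overlaps.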

Additional observations from a re-analysis of the deposited data

How the results depend on the processing

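Of 42 genes, 24 passed as lower, and this number was 14 without the expression filter, 13 with median-of-ratios scaling, 14 with quantile normalization and between 14 and 18 with 1 library fewer. It was 16 with the replicate block, and 0 genes passed as higher under any of the 15 alternatives. The total over all genes, 1549, was 752 without the filter, 814 with median-of-ratios scaling and 814 with quantile normalization. It was 944 with rescaling to nuclear protein-coding genes, 767 without the variance trend, 902 with the replicate block and between 573 and 1198 with 1 library fewer. The 26 related genes became 8, 10, 10, 12 and 15 without the filter, with median-of-ratios scaling, quantile normalization, rescaling and no trend, and lay between 11 and 16 with 1 library fewer. Over all genes the split of 174 higher and 1375 lower became 382 and 432 with median-of-ratios scaling, 374 and 440 with quantile normalization and 465 and 479 with rescaling, which brought the median change of all genes to -0.0029, -0.0048 and 0.0217. The cause of the other shifts was not tested.

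The 13 genes past the threshold after median-of-ratios scaling were all among the 24. Over the 42 genes and all alternatives, 503 values kept their call and direction, 106 lost the call, 1 gained it and 2 changed sign: Cenpl without uninduced replicate 2 (0.0785, with -0.71 to 0.0785 over the libraries left out) and Cenpt with rescaling (0.0129). Same-numbered libraries are not stated to be related, and their deviations from the group means correlated at 0.0215, -0.0152 and 0.0172, so the replicate block is given here only. Depth is unknown.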
